A study of Bos taurus with 8 samples.

Results

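HP, ORM1, S100A8, S100A9 and S100A12 encode 2 acute-phase proteins and the 3 calgranulins of bovine neutrophils. Their RNA was followed around calving in blood polymorphonuclear leukocytes (PMNL), a fraction made up mostly of neutrophils, from Holstein cows. The genes were found by their symbol on a 2-colour Agilent bovine array, and a feature (1 probe position) was used where it had a value on at least 6 of the 8 arrays. The symbols had 11 features, of which 10 passed; all 5 genes are among 9781 symbols with a row. The presence of values chose the features, while the genes themselves were named with earlier results of these arrays known. Their p-values, adjusted over all 15700 rows, therefore place the values and are no independent support.

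Blood came from 8 animals, 4 fed a diet labelled M and 4 a diet labelled S before calving, sampled at day +7 after calving and at day -14 before it (within 2 days), so the groups were diet M and diet S at each of these days, with 16 RNA samples in all. The labels describe a wheat straw diet of 1.34 Mcal/kg, meeting at least 100% of the energy need, and a corn silage diet of 1.62 Mcal/kg, over 140% of it, but do not say which is M and which is S. The dry period lasted 45 days, and after calving all cows ate a common lactation diet of 1.69 Mcal/kg. Of the 8 arrays, 2 set diet M against diet S at day +7, 2 did so at day -14, 2 set day +7 against day -14 in diet M, and 2 did so in diet S, with the dyes exchanged between the 2 arrays of a pairing. In diet M each day array held 1 cow at both days. In diet S each day array held different cows at the 2 days, so that day and cow cannot be told apart there. Values are log2 ratios after a loess correction, turned as diet M minus diet S or as day +7 minus day -14. On a single array a value still holds any dye effect of its gene, for which the fitted differences allow. All ratios were read as Cy5 over Cy3, which no label states. If the opposite holds for all 8 arrays, every sign turns over while sizes and p-values stay; if it holds for some, sizes and p-values change too.

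Haptoglobin, the product of HP, binds free haemoglobin, and orosomucoid, the product of ORM1, is a plasma glycoprotein that binds drugs and dampens inflammatory responses. Both are made mainly by the liver during an acute-phase response, and in neutrophils both have been described as stored granule proteins. S100A8 and S100A9 form calprotectin, a calcium-binding heterodimer that is abundant in neutrophil cytosol and withholds zinc and manganese from microbes. S100A12, also called calgranulin C, binds zinc and is a ligand of the receptor AGER. In RefSeq's genes of assembly ARS-UCD2.0 the calgranulin genes follow each other in the order S100A8, S100A12, S100A9, with 0 other genes between neighbours.

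The arrays gave values for 27679 to 32580 of 43803 features, and their median recovered brightness was 27.9 to 74.5 scanner units. Over all rows the SD of the ratios was 0.734 to 1.05 on 7 arrays and 1.52 on the second diet array of day +7. That array holds cow 8041 of diet S at day +7, and the first day array of diet S holds the same cow at day -14. Of the mature neutrophil markers, 7 of 12 had a row, among them the chemokine receptor CXCR1. Ratios carry no level of a marker in 1 sample, and in such bulk RNA fewer cells of a type and less RNA per cell cannot be told apart.

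Apart from a dim second feature of S100A9, the calgranulin features were brighter than nearly all others, with at most 1.73% of features above them, and much of their signal stood at the top of the scanner's scale. The ratios could be traced back to ratios of whole numbers, and the larger number fell between 65400 and 65499 in 180 spots, against 10 spots between 65300 and 65399 and 4 between 65200 and 65299. A channel in this pile-up, just under the 16-bit limit of 65535, reads no higher however much RNA is present. The only S100A8 feature had a channel matched to this ceiling on 7 of 8 arrays, the bright S100A9 feature on 3, and the 3 S100A12 features on 7, 6 and 7. Some matches also fit smaller whole numbers that are not at the ceiling, so counts of spots at the ceiling may be too high. They may also be too low, since ratios whose larger recovered number was small were not searched for a match. Over all 43803 features, 0.406% of spots with a value had a channel at the ceiling, and 0.199% of the features used had one on 6 or more arrays. With 1 channel at the ceiling a ratio is a lower bound on its size. With both channels there, as on 2 arrays of 1 S100A12 feature and 3 of another, it is pinned near 0. No HP or ORM1 feature was matched to the ceiling on any array. For ORM1 this was fixed in advance, as its recovered numbers, at most 1117, were too small to be searched. The same held for HP on some arrays.

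**Figure D1:**
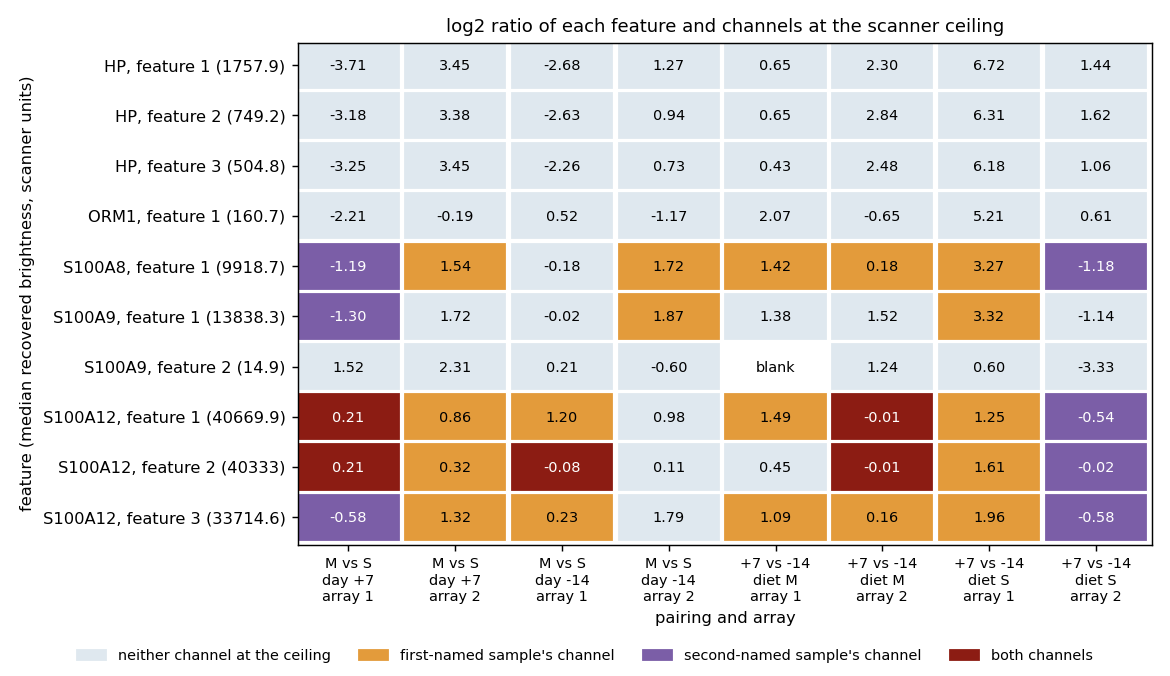
Log2 ratio of each of the 10 features (rows) on each of the 8 arrays (columns), with median recovered brightness in scanner units in brackets. Colours show which sample's channel was matched to the scanner ceiling, the first-named sample being diet M or day +7. HP and ORM1 had no channel matched to the ceiling, though ORM1 ratios were not searched for a match. The S100A8 feature had 1 on 7 of 8 arrays, and the S100A12 features had at least 1 on 6 or 7.

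HP had the widest range of the 5 genes. Its ratio of day +7 over day -14 was 0.58 in cow 7821 and 2.54 in cow 7973 of diet M. In diet S it was 6.40 for cow 7631 at day +7 over cow 8041 at day -14, an 84.7-fold ratio, and 1.37 for cow 7472 at day +7 over cow 7944 at day -14. HP was thus higher at day +7 on all 4 day arrays, the only one of the 5 genes of which this holds; 2.93% of 14320 rows with 4 day values did the same. The ratio of diet M over diet S was -3.38 (7979 over 7944) and 3.43 (7977 over 8041) at day +7, a 10.4-fold and a 10.8-fold ratio in opposite directions. At day -14 it was -2.52 (7979 over 7631) and 0.98 (7977 over 7472). Cow 7979 of diet M was thus below its diet S partner at both days, and cow 7977 above it. The diet S samples of cow 8041 were below their partners on both arrays that held this cow.

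The 3 HP features gave the same picture. On the diet S array with the largest ratio they read 6.72, 6.31 and 6.18, and on the first diet array of day +7 they read -3.71, -3.18 and -3.25. Over the 8 arrays each pair of HP features had a cosine of 0.996, where the cosine is 1 for profiles of the same shape. The spread that remained after the fit was an SD of 2.53, larger than in 99.9% of rows, against a median of 0.626. Read from the diet arrays alone, the change in the diet difference between the days was 0.80 for HP, and read from the day arrays alone it was -2.33. This gap of 3.13 was exceeded in size by 1.12% of 13150 rows.

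ORM1 was higher at day +7 on 3 of 4 day arrays. It read 2.07 in cow 7821 and -0.65 in cow 7973 of diet M, and 5.21 (a 37-fold ratio, over cow 8041) and 0.61 in diet S. The diet M over diet S ratio was -2.21 and -0.19 at day +7, both below 0, and 0.52 and -1.17 at day -14. In diet M the 2 acute-phase genes differed by array: the larger day ratio of HP was with cow 7973, and that of ORM1 with cow 7821. Day +7 was in Cy3 for cow 7973 and in Cy5 for cow 7821, and the fitted dye effect of ORM1 was 1.38. Cow and dye cannot be told apart on these 2 arrays. ORM1 rests on 1 feature of moderate brightness (160.7). A second feature had values on only 4 arrays and was not used; it read 0.49 on the second diet array of day +7, where the used feature read -0.19, and the 2 had the same sign on the other 3 arrays.

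S100A8 and S100A12 had similar profiles. S100A8 read 1.42 (cow 7821) and 0.18 (cow 7973) for day +7 over day -14 in diet M, and 3.27 (over cow 8041) and -1.18 in diet S. S100A12, averaged over its 3 features, read 1.01 and 0.05 in diet M, and 1.61 and -0.38 in diet S. On the second day array of each diet both genes were thus near or below 0. These arrays had day +7 in Cy3, while the first day array of each diet had it in Cy5. The fitted dye effect was 0.81 for S100A8 and 0.42 for S100A12, so array, cow and dye cannot be told apart here. On the second day array of diet M every S100A12 feature had a channel matched to the ceiling, and some had both. The day +7 channel of S100A8 may have been there too. The values near 0 on this array therefore do not show that RNA was unchanged. S100A12 had the same limit on the first diet array of day +7. For diet M over diet S, S100A8 read -1.19 and 1.54 at day +7, and -0.18 and 1.72 at day -14. S100A12 read -0.05 and 0.84 at day +7, and 0.45 and 0.96 at day -14. The cosine of S100A8 and the averaged S100A12 was 0.932. The 3 S100A12 features alone had cosines with S100A8 of 0.761, 0.964 and 0.811. Among themselves these features had cosines of 0.842, 0.653 and 0.735. They read 1.20, 0.23 and -0.08 on the first diet array of day -14, and 0.98, 1.79 and 0.11 on the second. The ratios of S100A12 were smaller in size than those of S100A8 on 7 of 8 arrays, and its features were brighter, with both channels at the ceiling on 2 arrays of 1 feature and 3 of another, which S100A8 had on 0 arrays.

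The S100A9 value joined 2 features that disagreed. The bright feature (median brightness 13838.3) read 1.38 and 1.52 for day +7 over day -14 in diet M, 3.32 and -1.14 in diet S, -1.30 and 1.72 for diet M over diet S at day +7, and -0.02 and 1.87 at day -14. It followed S100A8, with a cosine of 0.962. They parted most on the second day array of diet M, at 1.52 against 0.18. There no channel of the bright S100A9 feature was at the ceiling. The S100A8 ratio could be written with a day +7 value at the ceiling, but also as 58085 over 49883. Whether that channel was at the ceiling is thus not settled. The dim feature (brightness 14.9, below 81.9% of features) was blank on the first day array of diet M and read 1.24 on the second. It read 0.60 and -3.33 in diet S, 1.52 and 2.31 for diet M over diet S at day +7, and 0.21 and -0.60 at day -14. Its cosine with the bright feature was 0.390 over 7 arrays, and the 2 differed in sign on the first diet array of day +7 and on both diet arrays of day -14. The averaged values were 1.38 and 1.38 in diet M and 1.96 and -2.23 in diet S. For diet M over diet S they were 0.11 and 2.01 at day +7 and 0.10 and 0.63 at day -14. The first diet M value is that of the bright feature alone. Where the 2 features lay far apart or differed in sign, the average describes neither.

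**Figure D2:**
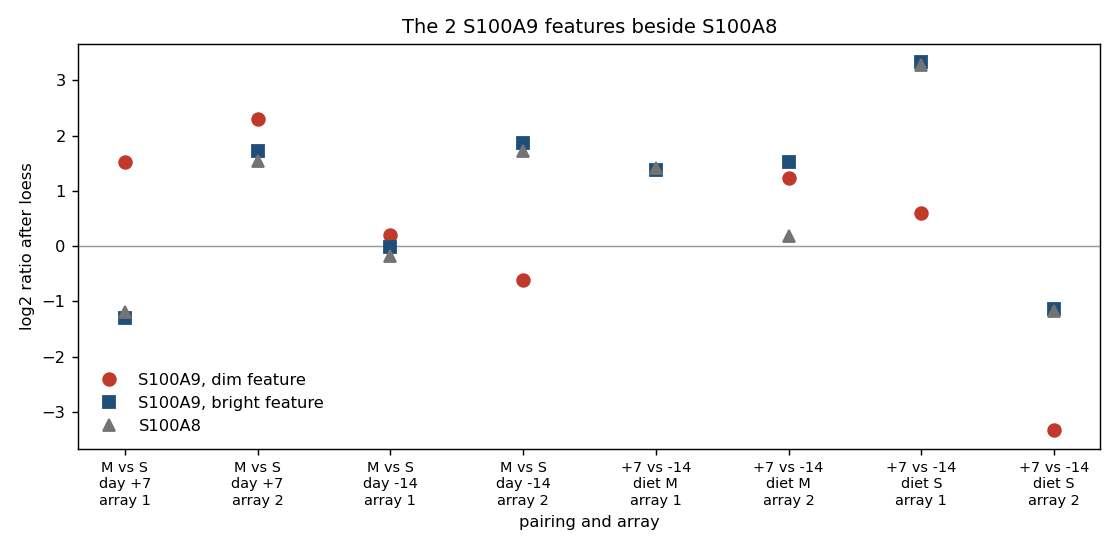
Log2 ratio after loess (vertical axis) of the dim and the bright S100A9 feature and of S100A8 on the 8 arrays, grouped by pairing (horizontal axis). The bright S100A9 feature lies beside S100A8 on 7 arrays and at 1.52 against 0.18 on the second day array of diet M, while the dim feature lies on the other side of 0 on the first diet array of day +7.

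**Figure D3:**
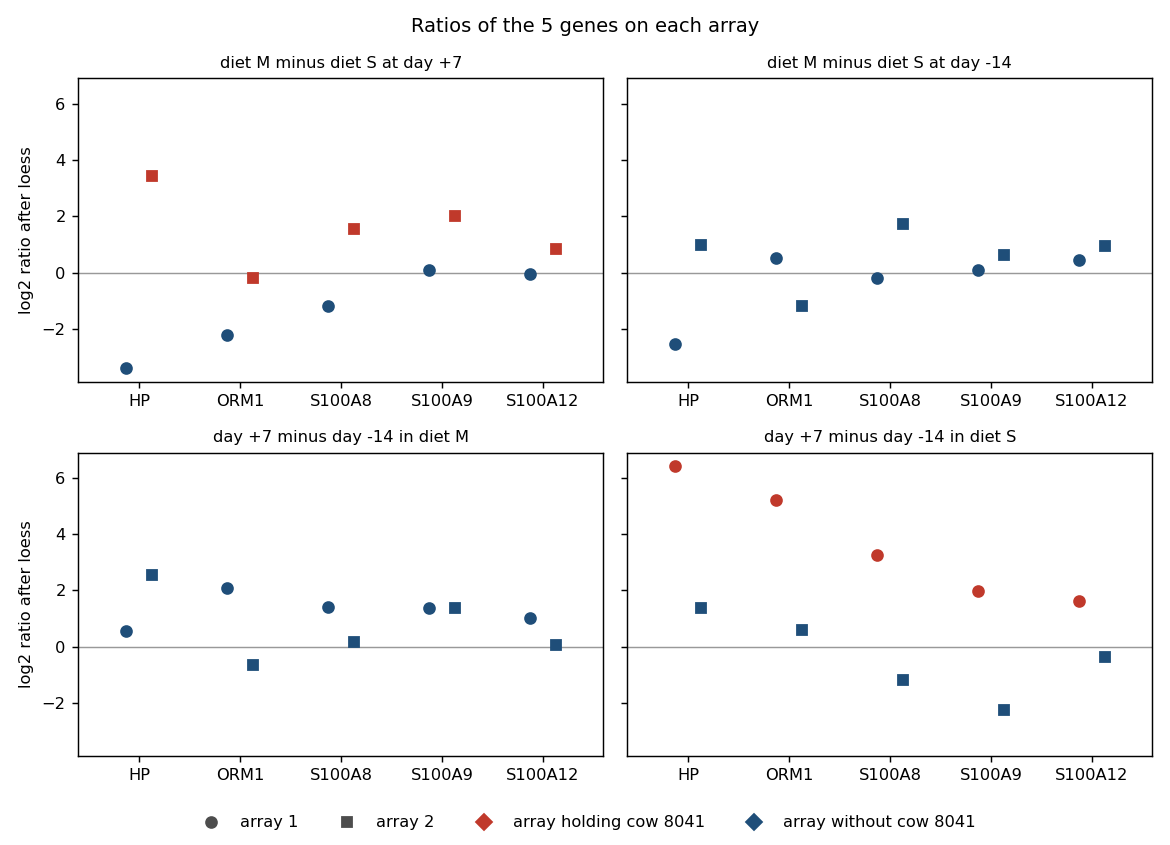
Log2 ratio after loess (vertical axis) of each gene on the 2 arrays of each of the 4 pairings; red points are the arrays that hold cow 8041. On the day +7 diet panel every gene is higher on the array with cow 8041 than on the other, and HP lies at -3.38 and 3.43.

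Which genes differed between diet M and diet S after calving was asked at day +7. In limma's loop model over all 8 arrays, with Benjamini-Hochberg adjustment over 15700 rows, none of the 5 genes was called, against 0% of all rows (3626 rows had an unadjusted p under 0.05, and the smallest adjusted p was 0.114). ORM1 had a difference of -1.53 ± 0.50 (SE; adjusted p = 0.163), with both direct arrays below 0, and 9.82% of rows had a larger difference in size. S100A9 had 1.26 ± 0.67 (adjusted p = 0.287), which came mostly from its dim feature (2.18 ± 0.59) and little from the bright one (0.47 ± 0.88). S100A12 had 0.45 ± 0.38 (adjusted p = 0.488), S100A8 0.26 ± 0.81 (adjusted p = 0.857) and HP -0.76 ± 1.55 (adjusted p = 0.783). HP read 0.61 ± 2.07 without the first diet array of day +7 and -3.30 ± 1.52 without the second. Without both arrays of cow 8041, ORM1 read -1.19 ± 0.48 and HP -2.67 ± 1.08, again with no call. On both diet arrays of this day 5.29% of rows lay at 1 log2 or beyond in the same direction, and 0 of the 5 genes did.

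At day -14 the differences between diet M and diet S were small for the acute-phase genes, 0.01 ± 1.55 for HP and 0.00 ± 0.50 for ORM1 (limma). All 3 calgranulins were estimated above 0, at 0.68 ± 0.81 for S100A8, 0.16 ± 0.67 for S100A9 and 0.65 ± 0.38 for S100A12, with S100A8 and S100A12 at an adjusted p of 0.813 and 0.736. Again 0% of rows and none of the 5 genes were called. By size on both arrays, 4.51% of rows and 0 of the 5 genes qualified. Without both arrays of cow 8041 the HP difference was -1.46 ± 0.86.

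Between day +7 and day -14 within diet M, all 5 estimates were above 0. HP stood at 2.34 ± 1.55, S100A9 at 1.17 ± 0.67, ORM1 at 1.04 ± 0.50, S100A8 at 0.71 ± 0.81 and S100A12 at 0.47 ± 0.38, each with an adjusted p of 0.999 (limma). In size, 0.61% of rows had a larger difference than HP. The median of the 5 was 1.04, against 0.02 over all rows. No row passed the threshold (0%). By size on both arrays, 1.81% of rows qualified and 1 of the 5 genes, S100A9, whose first array holds the bright feature alone. With 1 array left out at a time the HP estimate ran from 1.49 ± 1.19, without the second diet array of day +7, to 4.26 ± 1.86, without the array of cow 7821. It was 1.51 ± 1.22 without the first diet array of day -14. Without both arrays of cow 8041 it was 0.87 ± 0.86, although neither day array of diet M holds this cow.

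Within diet S the 5 estimates of day +7 minus day -14 were again above 0, with a median of 1.13 against -0.004 over all rows. HP stood at 3.11 ± 1.55 and ORM1 at 2.58 ± 0.50 (adjusted p = 0.999 each in limma, with 0% of rows called), and 0.22% and 0.49% of rows had a larger difference. S100A8 stood at 1.13 ± 0.81, S100A12 at 0.67 ± 0.38 and S100A9 at 0.07 ± 0.67. For S100A9 the features went apart, with 1.36 ± 0.88 for the bright and -1.10 ± 0.59 for the dim one. By size on both arrays 3.19% of rows and 1 of the 5 genes, HP, qualified. Without the array of cows 7631 and 8041 HP read 1.23 ± 1.87, ORM1 1.64 ± 0.41, S100A8 0.14 ± 0.97, S100A12 0.28 ± 0.50 and S100A9 -0.83 ± 0.78. Without the array of cows 7472 and 7944 they read 3.81 ± 2.15, 3.02 ± 0.65, 2.25 ± 0.91, 1.15 ± 0.47 and 1.27 ± 0.59, in the same order.

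**Figure D4:**
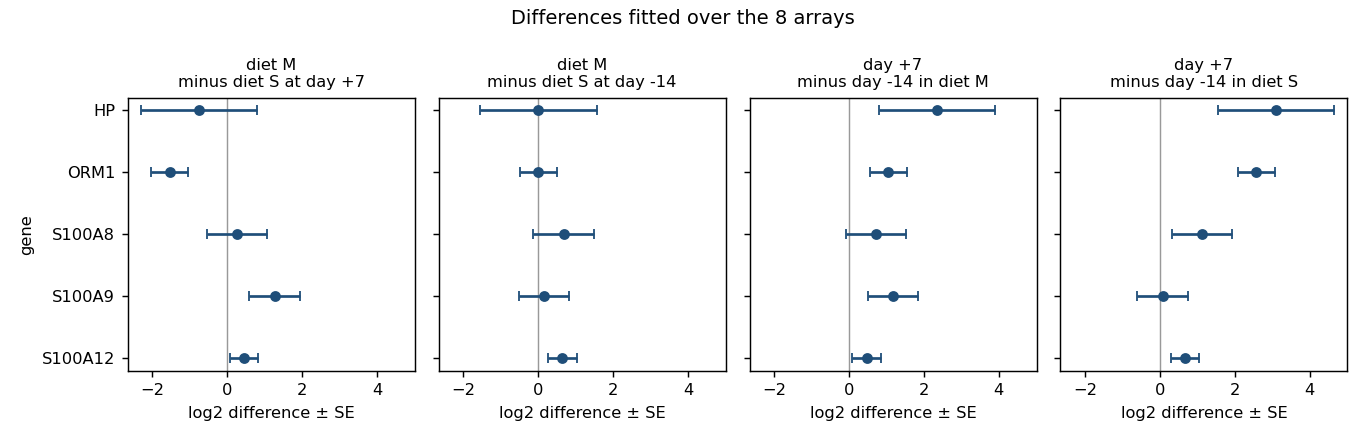
Fitted log2 difference ± moderated SE (horizontal axis) of each gene (vertical axis) in the 4 comparisons, from the loop model over 8 arrays. All 5 genes lie above 0 in both day comparisons, with HP at 2.34 and 3.11, and ORM1 lies furthest below 0 for diet M minus diet S at day +7, at -1.53.

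Whether the diets differed in their change over calving was read from the interaction, the day difference of diet M minus that of diet S. It was -1.54 ± 0.57 for ORM1 (adjusted p = 0.735; -0.91 ± 0.40 without the first day array of diet S and -0.89 ± 0.51 without both arrays of cow 8041), -0.77 ± 1.79 for HP, -0.42 ± 0.93 for S100A8, -0.20 ± 0.44 for S100A12 and 1.10 ± 0.77 for S100A9, with adjusted p of 0.735 or above in limma and 0% of rows called. The S100A9 value was 2.64 ± 0.74 for the dim feature and -0.18 ± 1.01 for the bright one. The dye term of the model was above 0 for all 5 genes, from 0.42 for S100A12 to 1.38 for ORM1, while its median over all rows was 0.03.

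Each gene's closest profiles over the 8 arrays were sought by cosine among 1937 rows with an array value on all 8 and a root mean square log2 ratio of at least 1. They are descriptions over arrays that share cows, and the array values compared still hold the dye effect of each gene. HP was most like CACNB3 (0.944), IL1R2 (0.942), the decoy receptor for interleukin-1, and GJB2 (0.930), a gap junction protein. ORM1 was most like CFB (0.974), complement factor B, P4HA1 (0.938), a collagen prolyl hydroxylase subunit, and LTF (0.905), the iron-binding granule protein lactoferrin. S100A8 was most like TNFAIP6 (0.971), a hyaluronan-binding protein, NOL3 (0.959) and MMP9 (0.942), a gelatinase of neutrophil granules. S100A12 was most like TNFAIP6 (0.951), S100A8 (0.932) and GNB4 (0.914). The averaged S100A9 value was most like CDA (0.957), RAB31 (0.930) and TCN1 (0.927), and carries the limit of its dim feature. Among the 5 genes the cosines ran from 0.370, for ORM1 and S100A9, to 0.932, and HP and ORM1 reached 0.683.

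Of 22 other acute-phase genes with a row (32 listed), none passed limma's threshold in any comparison. Day +7 over day -14 was estimated above 0 for 19 of 22 in diet M (median 0.34) and for 14 of 22 in diet S (median 0.27). On the day arrays of diet M themselves, 12 of 19 with a value were above 0 in cow 7821 (median 0.08). In cow 7973 it was 9 of 22 (median -0.18). On those of diet S it was 18 of 22 (median 0.80, over cow 8041) and 16 of 22 (median 0.54). CFB had 3.63 ± 0.82 in diet S, and its array values there were 7.42 (over cow 8041) and 0.79, beside 5.21 and 0.61 for ORM1. LCN2, the siderophore-binding lipocalin, had -2.48 ± 0.50 for diet M minus diet S at day +7 (adjusted p = 0.122), with -2.19 and -1.91 on its 2 arrays. Serum amyloid genes SAA1, SAA3 and SAA4 had no row. Of 11 other S100 genes with a row (16 listed), none passed in any comparison. At day +7, 10 of 11 were estimated above 0 for diet M minus diet S (median 0.53), and S100A2, at -1.67 ± 0.59 on 6 arrays, was below. The 2 arrays of that comparison went apart. On the first, 4 of 11 were above 0 (median -0.47), and over cow 8041 it was 10 of 10 (median 2.15).

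Receptors and partners of these proteins, 9 of 10 with a row, had no call in any comparison. All 9 were estimated above 0 for diet M minus diet S at day +7 (median 0.69). On the first array of that comparison 7 of 9 were above 0 (median 0.696), and over cow 8041 it was 9 of 9 (median 2.535). MYD88, the adaptor of Toll-like receptors, had 2.34 ± 0.31 (adjusted p = 0.121) and TLR4, a receptor for calprotectin, 2.13 ± 0.54 (adjusted p = 0.137). CD163, the receptor that clears haptoglobin with its haemoglobin, had 2.02 ± 1.04 in diet S for day +7 minus day -14, from array values of 5.30 (over cow 8041) and 0.53. In the pathway that induces acute-phase genes, 15 of 18 with a row were estimated above 0 for diet M minus diet S at day +7 (median 0.86) with no call. Their median was 0.80 on the first array and 2.255 over cow 8041. All 7 mature neutrophil markers (median 2.10) and all 10 monocyte markers (median 0.91) with a row were also estimated above 0 in this comparison. So were 9 of 10 T cell and NK, 2 of 2 eosinophil and basophil, 2 of 2 platelet, 2 of 3 red blood cell and 1 of 4 B cell markers. On the first array 1 of 10 monocyte and 5 of 7 mature neutrophil markers were above 0 (medians -0.69 and 0.67). Over cow 8041 it was 10 of 10 and 6 of 6 (medians 3.08 and 2.92). SOCS3, the feedback inhibitor of STAT3 signalling, had 3.09 ± 0.44 and IL1B, the inducing cytokine interleukin-1 beta, 2.88 ± 0.50, each with an adjusted p of 0.121 (limma). On the first array and over cow 8041 they read 2.61 and 3.29 (SOCS3) and 1.54 and 3.25 (IL1B). ORM1 read -2.21 and -0.19 on these arrays. HP read -3.38 and 3.43, and its estimate of -0.76 ± 1.55 leaves its direction undetermined. Whether SOCS3 and IL1B differ from ORM1 and HP was not tested.

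Specific granule proteins had 14 of 17 genes with a row and no call in any comparison. Their median was 5.17 on the diet S day array with cow 8041, where the median of the 5 genes was 3.27, and -1.06 on the other, against -0.38. LTF read 5.75 and 0.55 on these arrays. On the diet arrays of day +7 their median was -2.03 and, over cow 8041, 2.68, beside -1.19 and 1.54 for the 5 genes.

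Markers of other cells moved on the same arrays. The 10 monocyte markers with a row had a median of 3.19 on the diet S day array with cow 8041 and of 3.08 on the day +7 diet array with this cow, against -0.69 to 0.94 on the other 6 arrays. On the same 2 arrays the mature neutrophil markers had medians of -0.33 and 2.92, and the T cell and NK markers 0.68 and 1.35. Of the T cell and NK markers, 0 of 10 were higher at day +7 on the first day array of diet M (median -1.20) and on the second of diet S (median -1.09). CCR3 and GATA2, the only eosinophil and basophil markers with a row, had values of 6.56 to 8.25 on the day +7 diet array with cow 8041. The 4 B cell markers with a row had a median of -2.63 there, the 2 platelet markers 1.88 and the 3 red blood cell markers 0.92. The part of these markers in the values of the 5 genes was not tested.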

How the data were processed

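RNA of PMNL (200 ng per sample, RNA integrity number 7.7 ± 0.2, per the labels' protocols) was hybridised with Cy3 or Cy5 to 8 arrays. The authors deposited log2 ratios of the 2 channels. How the array images were read, filtered and normalized is not given in the sources used here. Deposited values were not centred (column medians -0.373 to 0.398, blanks 25.6 to 36.8%), and 97.8 to 98.5% of them were log2 ratios of 2 whole numbers of at most 10000 (tolerance 6e-10), against 1.0 to 1.5% after a shift. Ratios were reduced to lowest terms, so the recovered brightness is a lower bound. A channel counted as at the ceiling where the ratio could be written, within the tolerance, with a whole number of 65300 to 65535. The larger recovered number also had to be at least 65300 divided by 20. Ratios with a smaller one were not searched, so a channel at the ceiling may have been missed there. No whole common factor was required, so some matches, as 58085 over 49883 for S100A8, also fit smaller numbers that do not reduce a ceiling value.

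The design had assumed normalised ratios. Each array was instead corrected by loess of degree 1 on median feature brightness (span 0.4, 4 iterations; limma 3.58.1, R 4.3.3), which removes any shift shared by features of like brightness. The platform's annotation gave the symbols, brought up to date with RefSeq (30788 features with 1 symbol, 0 with several, 13015 with none). Features with values on at least 6 arrays (24620) were averaged by symbol to 15700 rows. A loop model with a dye term was fitted to all arrays with equal weights and no imputation (residual degrees of freedom 2 to 4, prior 3), two-sided, at a Benjamini-Hochberg adjusted p of 0.05 over all rows in each of 5 comparisons; it was tested on simulated data. The number of arrays limits the precision, and p-values cover only the spread among these arrays.

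The 5 genes and all gene lists were chosen with earlier results of these data known. Named genes are the 5 genes, the 3 closest profiles of each, and, from the lists described, genes among the 3 with the largest estimate over SE in a comparison; CXCR1, CCR3 and GATA2, SAA1, SAA3 and SAA4, and the single S100A9 features were named in addition, some after their values were seen. Alternatives covered the correction, the feature filter, how features of a symbol were joined, the dye term, array weights, the cow as a block and leaving out arrays.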

Additional observations from a re-analysis of the deposited data

How the results depend on the processing

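No row passed in any of the 5 comparisons under any alternative, except for diet M minus diet S at day +7: 1 row with features on all 8 arrays, and 325 of 9661 rows with features of a median brightness of at least 64. None of the 5 genes passed in any of them; the lowest adjusted p was 0.0776 (limma), for ORM1 at day +7 with the brightness filter. Leaving out 1 array at a time gave 0 calls in each comparison. The labels give no shared replicate numbers. With the cow as a replicate block (correlation 0.2, by REML) the counts were 0 as well, with 3561 rows at an unadjusted p under 0.05 for the diets at day +7. The cause of the sign changes below was not tested.

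Signs held in all alternatives run for the day differences of HP, ORM1, S100A8 and S100A12 and for ORM1 at day +7. With 1 array left out at a time, HP ran from -3.30 to 0.61 for diet M minus diet S at day +7, from -1.31 to 2.51 at day -14 and from -2.46 to 0.51 for the interaction. S100A8 ran from -0.20 to 0.74, from -0.71 to 1.94 and from -1.26 to 0.51 in the same order. ORM1 at day -14 ran from -0.31 to 0.66, the S100A12 interaction from -0.52 to 0.17, S100A9 at day -14 from -0.72 to 0.73 and S100A9 in diet S from -0.83 to 1.27. Without both arrays of cow 8041 HP at day -14 was -1.46, ORM1 at day -14 -0.30, the interaction 0.01 for S100A8 and 0.075 for S100A12, and S100A9 -0.82 in diet S and -0.15 at day -14. HP at day -14 was -0.034 with the median of its features. ORM1 at day -14 was -0.011 with arrays centred on their median, -0.15 with loess on each array's own brightness and -0.005 with array weights. S100A9 in diet S was -0.14 with the values as deposited and -0.059 with loess on each array's own brightness. Its interaction was -0.18 with the bright feature alone, which is also what remained with features on all 8 arrays or with the brightness filter.

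Leaving out spots at the ceiling, an alternative chosen after seeing the data, left S100A8 and S100A12 with too few values for a fit, gave S100A9 -0.77 in diet S and -0.30 at day -14, and left the HP and ORM1 estimates as they were.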
